A study of Mus musculus with 6 samples.

Results

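Expression of 10 Notch pathway genes was examined in cancer-associated fibroblasts (CAFs) of mouse mammary tumors. The genes comprised 4 receptors (Notch1, Notch2, Notch3 and Notch4), 3 ligands (Jag1, Jag2 and Dll1) and 3 target genes (Hes1, Hey1 and Heyl), taken by symbol from a table of 27179 genes. All 10 genes passed the filter on low counts, as did 14855 genes in all. CAFs came from raGFP-Wnt1 mice, which carry both a Pdgfra H2B-GFP reporter, marking fibroblasts by nuclear GFP, and an MMTV-Wnt1 transgene, whose promoter is active mainly in mammary epithelium. The reporter was on a C57BL/6 background and the transgene on FVB/NJ, and the age of the tumor-bearing mice was not given in the sources used here. GFP+ cells of 3 tumors were sorted into CD34- and CD34+ fractions, and each tumor gave 1 library of either kind (n = 3 per group). Both groups thus share the genotype, the tumors and the Pdgfra-driven gate, and differ in the surface protein used for the sort.

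Notch receptors are read by contact between cells. A Jagged or Delta-like ligand on a neighboring cell opens the receptor to cleavage by ADAM proteases and gamma-secretase, and the released intracellular domain enters the nucleus, where it joins the DNA-binding protein RBPJ and a Mastermind-like coactivator to switch on HES and HEY repressor genes. In connective tissue, Notch3 and Heyl are best known from pericytes and vascular smooth muscle, the mural cells that wrap blood vessels.

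Library totals ranged from 16238059 to 86609267 counts. The CD34- library of tumor 3 had counts for the fewest genes (14314) and the lowest correlation with the other libraries (Pearson's r of log2 CPM over genes 0.863 to 0.905). Cd34 itself stood at 79.2, 42.0 and 102 CPM (counts scaled to library size) in the CD34- libraries of tumors 1, 2 and 3, and at 678, 563 and 1600 CPM in the CD34+ libraries. Fibroblast genes were abundant in all 6 libraries, with Col1a1 at 11700 to 22800 CPM, Dcn at 1730 to 8530 CPM and Pdgfra at 302 to 506 CPM.

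The question was which Notch genes differ between CD34- and CD34+ CAFs. Notch1, Notch3 and Heyl were higher in the CD34- library of every tumor, by 2.01-fold, 2.92-fold and 3.52-fold in a fit that compares libraries within tumors. The most abundant receptor, ligand and target by length (Notch2, Jag1 and Hes1) differed by less than the spread between libraries. In limma-voom without a term for the tumor (the study's methods name voom and limma and do not say whether the tumor was in the model), none of the 10 genes had a Benjamini-Hochberg adjusted p under 0.05. Of all genes, 18 did (0.121%), and at an unadjusted p under 0.05 there were 3 of the 10 Notch genes and 2128 of all genes tested. With the tumor as a block, 3 of the 10 passed, all higher in CD34- CAFs, against 8.57% of all genes in either direction, 4.32% higher and 4.25% lower. The same 3 genes had CPM that did not overlap between groups with CD34- CAFs higher, as had 10.4% of all genes, and no Notch gene had non-overlapping CPM with CD34- CAFs lower, as had 10% of all genes. The median log2 fold change of the 10 genes was 0.63 without the block and 0.55 with it, beside -0.03 and -0.01 over all genes tested. In both fits the middle values were those of Dll1 and Hey1, which had few counts and did not pass. Without the block these were 0.31 ± 0.93 (SE) and 0.94 ± 0.50. The median thus does not show a shift of all 10 genes. In bulk RNA of this kind, fewer cells of a type and less RNA per cell cannot be told apart.

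**Figure D1:**
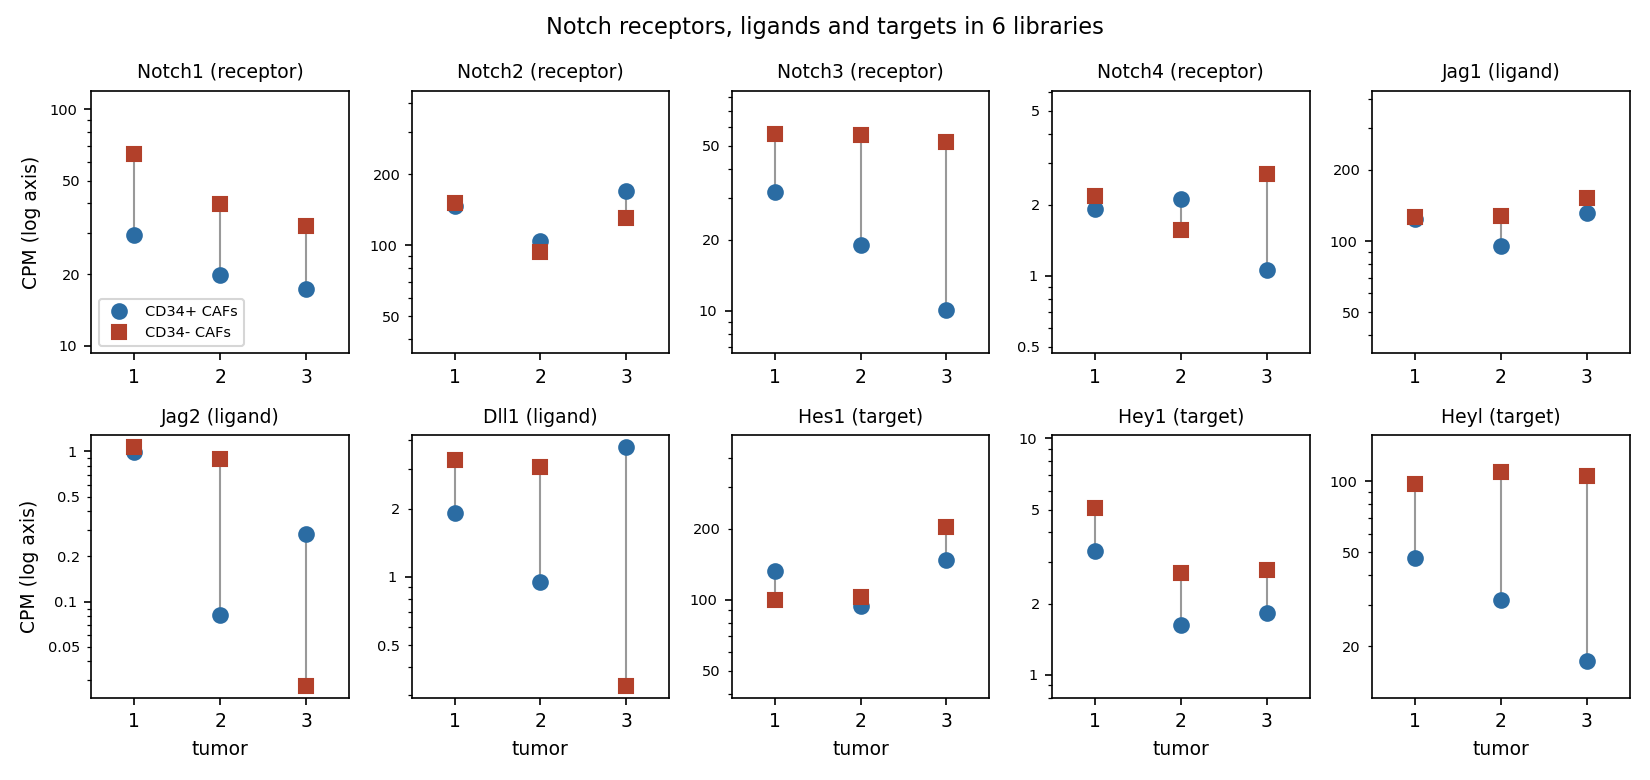
CPM of the 10 Notch genes (log axis, a separate range per gene) in the CD34- (squares) and CD34+ (circles) CAF library of each of 3 tumors, with a line joining the libraries of a tumor. Squares lie above circles in all tumors with no overlap between groups for Notch1, Notch3 and Heyl, while Jag2 and Dll1 change direction between tumors.

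Promoters of Notch1, Notch3 and Notch2 are shown because expression of Notch1 and Notch3 differed between the fractions and that of Notch2 did not pass. The 250 bases before the RefSeq start site (GRCm38.p6) are written 5′ to 3′ on the strand of the gene, with each GC box, GGGCGG or its reverse complement CCGCCC, in capitals. The windows are chr2:26503823-26504072 on the minus strand for Notch1, chr17:32166891-32167140 on the minus strand for Notch3 and chr3:98013288-98013537 on the plus strand for Notch2.
Notch1: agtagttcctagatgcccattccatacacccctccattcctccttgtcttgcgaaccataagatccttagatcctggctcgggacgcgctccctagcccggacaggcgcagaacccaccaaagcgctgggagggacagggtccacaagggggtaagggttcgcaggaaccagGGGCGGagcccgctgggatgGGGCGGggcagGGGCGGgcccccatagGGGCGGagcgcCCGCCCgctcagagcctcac
Notch3: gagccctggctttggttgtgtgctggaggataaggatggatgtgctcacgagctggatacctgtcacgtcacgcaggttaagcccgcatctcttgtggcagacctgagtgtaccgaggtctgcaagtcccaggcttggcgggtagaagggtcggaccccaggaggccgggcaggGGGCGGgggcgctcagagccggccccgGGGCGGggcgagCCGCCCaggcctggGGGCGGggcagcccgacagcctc
Notch2: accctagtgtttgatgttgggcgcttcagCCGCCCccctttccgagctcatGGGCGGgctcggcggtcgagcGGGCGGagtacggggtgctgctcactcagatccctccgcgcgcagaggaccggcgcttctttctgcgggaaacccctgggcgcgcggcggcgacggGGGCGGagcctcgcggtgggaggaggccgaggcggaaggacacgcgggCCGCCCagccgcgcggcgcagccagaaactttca

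All 3 windows were rich in G and C (66.0% for Notch1, 68.8% for Notch3 and 72.0% for Notch2, beside a median of 52.4% over all RefSeq promoter windows) and held 5, 4 and 5 GC boxes, a motif known to be bound by Sp1-type factors. A GC box was present in 4 of the 8 windows found for 7 of the Notch genes (Jag2 had the fourth) and in 32.7% of all 32851 windows. The core of the RBPJ motif, TGGGAA on either strand, was in 0 of the 8 windows and in 21.6% of all windows. By these letters the windows of Notch1, Notch3 and Notch2 were alike. That of Notch4, which did not pass either, held 0 GC boxes at 58.4% G and C. The part of the promoter in the differences was not tested. Hes1, Hey1 and Heyl had no window.

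Notch1 (gene 18128, chr2:26457902-26503822), a receptor broadly expressed across tissues, stood at 64.5, 39.8 and 32.0 CPM in the CD34- libraries of tumors 1, 2 and 3, and at 29.5, 19.9 and 17.3 CPM in the CD34+ libraries. The lowest CD34- library lay above the highest CD34+ library by a small margin. Within tumors the log2 ratio was nearly the same, at 1.13, 1.00 and 0.89. The log2 fold change was 1.10 ± 0.31 (SE) without the block (adjusted p = 0.176, limma-voom) and 1.01 ± 0.17 with it (adjusted p = 0.0071, limma-voom). In both fractions tumor 1 was highest and tumor 3 lowest, so that the spread within a group was shared by the libraries of a tumor. A long noncoding gene that overlaps Notch1, 0610009E02Rik, held 89 counts over all libraries beside 9242 for Notch1.

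Notch3 (gene 18131, chr17:32120820-32166896), the mural cell receptor, stood at 56.0, 55.6 and 51.8 CPM in the CD34- libraries and at 31.9, 18.9 and 10.1 CPM in the CD34+ libraries. The CD34- libraries were almost level, the highest 1.08 times the lowest, whereas the CD34+ libraries spread 3.18-fold. The distance between fractions thus varied with the CD34+ library, with log2 ratios within tumors of 0.81, 1.56 and 2.36. Notch3 thus had a log2 fold change of 1.65 ± 0.30 (adjusted p = 0.0759, limma-voom) and, with the block, 1.55 ± 0.24 (adjusted p = 0.00601, limma-voom).

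Notch2 (gene 18129, chr3:98013538-98150367), a receptor expressed in many mesenchymal cells, stood at 151, 93.1 and 130 CPM in CD34- libraries and 146, 104 and 169 CPM in CD34+ libraries. The groups overlapped, with tumor 2 lowest in both fractions. The log2 fold change with the block was -0.17, with a 95% interval from -0.47 to 0.13 (adjusted p = 0.522, limma-voom), an interval that does not reach the values of Notch1 and Notch3. Notch4 (gene 18132, chr17:34564286-34588543), a receptor mainly of endothelial cells, was near the lower end of detection at 1.06 to 2.70 CPM in all 6 libraries. Its interval with the block ran from -1.20 to 1.49, so that a change of the size seen for Notch1 was not excluded at this depth.

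Per length, the receptors ranked Notch2, Notch3, Notch1, Notch4 in both fractions. CPM per kilobase of gene length (RPKM) averaged 11.9 ± 2.77 (SD, n = 3), 6.86 ± 0.29, 4.78 ± 1.79 and 0.325 ± 0.085 in CD34- CAFs, and 13.3 ± 3.17, 2.56 ± 1.39, 2.34 ± 0.68 and 0.257 ± 0.085 in CD34+ CAFs. Notch3 and Notch1, neighbors in that order, overlapped in both groups. Of the summed receptor RPKM, Notch3 made up 24.8%, 34.5% and 28.8% in the CD34- libraries and 18.9%, 16.2% and 6.54% in the CD34+ libraries. The Notch3 share was thus higher in the CD34- library of every tumor, with means of 29.3% ± 4.89 and 13.9% ± 6.50 (SD, n = 3), and a difference of 15.5 percentage points. An exact two-sided permutation test gave p = 0.1 (0.2 after Benjamini-Hochberg adjustment over 2 shares), the smallest p that 3 against 3 libraries allow, and an exact sign-flip test within tumors gave 0.25, the smallest for 3 pairs. Notch1 averaged 19.8% ± 4.55 of the receptor total in CD34- and 12.8% ± 2.91 in CD34+ CAFs. Notch2, the remainder apart from Notch4 at 1.38% and 1.46%, averaged 49.5% ± 5.49 and 71.9% ± 9.87, and since shares sum to the whole this is not a separate result.

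**Figure D2:**
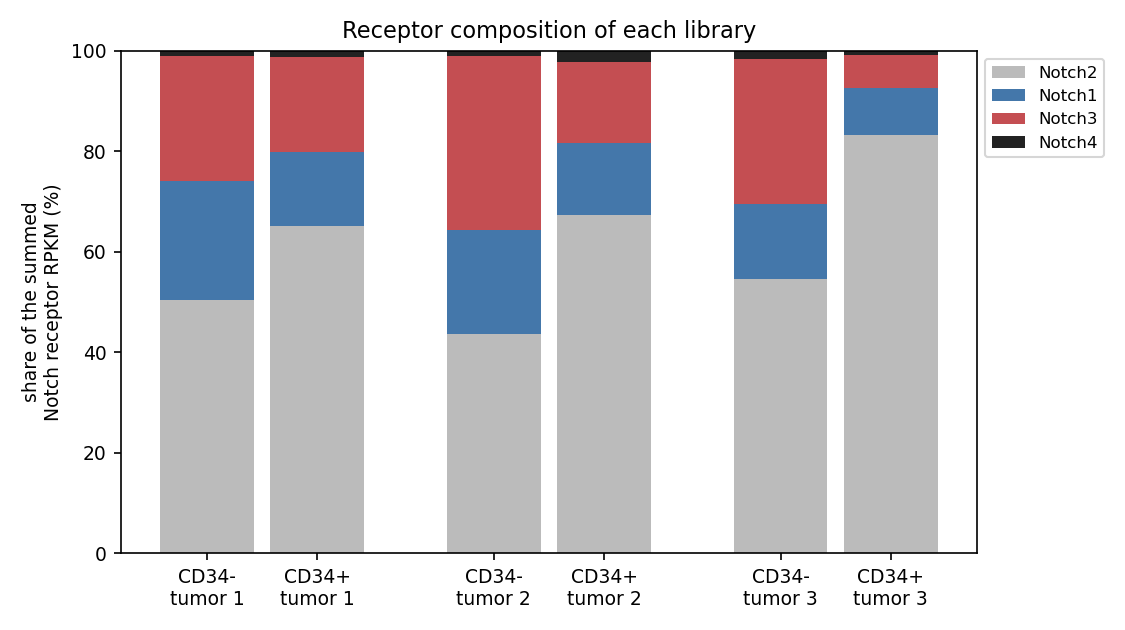
Share of each Notch receptor in the summed receptor RPKM (%, stacked to 100) in the CD34- and CD34+ library of each tumor. Notch3 makes up 24.8% to 34.5% in the CD34- bars and 6.54% to 18.9% in the CD34+ bars, and Notch2 is the largest portion in all 6.

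Among ligands, Jag1 (gene 16449, chr2:137081451-137116520), the Jagged ligand common in stroma and vessel walls, made up nearly all of the signal. It stood at 126, 128 and 152 CPM in CD34- libraries and 124, 95.6 and 132 CPM in CD34+ libraries. CD34- CAFs were higher in all 3 tumors, but by a log2 ratio of only 0.02 in tumor 1, and the groups overlapped. The log2 fold change was 0.21 ± 0.19 without the block (adjusted p = 0.637, limma-voom) and 0.23 ± 0.13 with it (adjusted p = 0.359, limma-voom; 95% interval -0.07 to 0.53). Its share of the summed ligand RPKM averaged 96.7% ± 2.58 in CD34- and 96.8% ± 1.48 in CD34+ CAFs (exact two-sided permutation p = 1, n = 3 per group).

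Dll1 (gene 13388, chr17:15367354-15376932), a Delta-like ligand, stood at 3.29, 3.06 and 0.330 CPM in CD34- libraries and 1.92, 0.948 and 3.74 CPM in CD34+ libraries. CD34- CAFs were higher in tumors 1 and 2 and lower in tumor 3, where the CD34- library had 12 reads. Jag2 (gene 16450, chr12:112907803-112929812), the other Jagged ligand, rested on 60, 40 and 1 reads in CD34- and 16, 7 and 8 reads in CD34+ libraries. Both low ligands changed direction between tumors. Their 95% intervals with the block were wide, from -1.47 to 2.32 for Dll1 and from -1.99 to 3.74 for Jag2 (log2 fold change). No difference was detectable at these read counts.

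Of the targets, Heyl (gene 56198, chr4:123233556-123249870), a HEY-family repressor, had a pattern over libraries like that of Notch3. It stood at 97.1, 110 and 105 CPM in CD34- libraries and 47.2, 31.5 and 17.3 CPM in CD34+ libraries. As for Notch3, the CD34- libraries were nearly level (highest 1.13 times the lowest), the CD34+ libraries spread 2.74-fold, and the groups did not overlap. The log2 ratios within tumors were 1.04, 1.80 and 2.61. Heyl had a log2 fold change of 1.87 ± 0.29 (adjusted p = 0.0625, limma-voom) and, with the block, 1.82 ± 0.24 (adjusted p = 0.00279, limma-voom). Per length, Heyl was 3.04, 3.46 and 3.56 times Notch3 in CD34- and 2.59, 2.92 and 3.01 times Notch3 in CD34+ libraries. These ratios restate the similar course of both genes over the libraries and are not a separate result.

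Hes1 (gene 15205, chr16:30065357-30067796), a HES repressor that many signals besides Notch can induce, had the highest level per length of all 10 genes in both groups, 93.6 ± 40.7 RPKM in CD34- and 85.4 ± 18.8 RPKM in CD34+ CAFs (SD, n = 3). It stood at 100, 103 and 204 CPM in CD34- and 132, 93.7 and 147 CPM in CD34+ libraries, and the groups overlapped, with CD34- CAFs lower in tumor 1 and higher in tumors 2 and 3. The log2 fold change with the block was 0.10, with a 95% interval from -0.28 to 0.47 (adjusted p = 0.8, limma-voom), below the interval of Heyl, which ran from 1.28 to 2.35. Hey1 (gene 15213, chr3:8663359-8667038), another HEY repressor, stood at 5.09, 2.70 and 2.78 CPM in CD34- and 3.34, 1.62 and 1.83 CPM in CD34+ libraries. CD34- CAFs were higher in all 3 tumors by log2 ratios of 0.60, 0.74 and 0.59, yet the groups overlapped, and the log2 fold change with the block, 0.66 ± 0.48, did not pass (adjusted p = 0.466, limma-voom). Of the 3 targets only Heyl passed with the block. The 95% interval of Hey1 with the block, from -0.41 to 1.73, overlapped that of Heyl. A difference between Hey1 and Heyl was thus not shown.

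**Figure D3:**
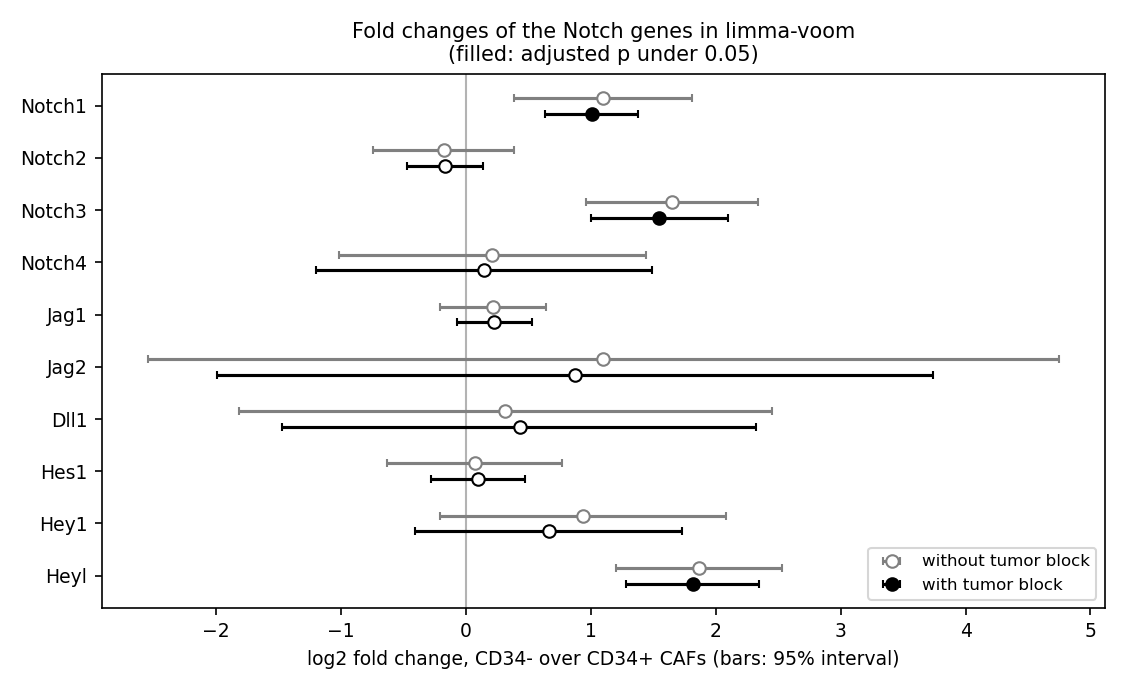
Log2 fold change (CD34- over CD34+ CAFs) of the 10 Notch genes in limma-voom without (grey) and with (black) the tumor as a block, with 95% intervals, filled where the adjusted p is under 0.05. Only Notch1, Notch3 and Heyl have filled points, all with the block, and the intervals of Notch2, Jag1 and Hes1 are narrow around values near 0.

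The order of levels per length was Hes1, Jag1, Heyl, Notch2, Notch3, Notch1, Hey1, Dll1, Notch4 and Jag2 in CD34- CAFs. In CD34+ CAFs it was the same but for Notch2, which came before Heyl. Neighbors whose ranges overlapped were Jag1 and Heyl, Notch3 and Notch1, Dll1 and Notch4, and Notch4 and Jag2 in CD34- CAFs. In CD34+ CAFs they were Notch2 and Heyl, Heyl and Notch3, Notch3 and Notch1, and each pair from Hey1 downward. Heyl averaged 22.9 ± 1.40 RPKM in CD34- CAFs, near Jag1 at 24.7 ± 2.68, and 7.06 ± 3.31 RPKM in CD34+ CAFs, where Jag1 was at 21.3 ± 3.46.

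For the receptor, ligand and target of highest level, the genes with the most similar log2 CPM over the 6 libraries were sought. They were Ncoa1 (Pearson's r = 0.985), Tmem14a (0.979) and Slitrk1 (0.979) for Notch2. For Jag1 they were Ppcdc (0.990), 2010315B03Rik (0.986) and Gm6958 (0.976), and for Hes1 Kat2b (0.994), Chkb (0.992) and Snora3 (0.992). The libraries come in pairs from 3 tumors, and these values are a description of 6 points chosen from all genes tested.

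The rest of the pathway was followed in a list of 46 further genes, of which 36 passed the filter on low counts. None passed in limma-voom without the block (5 at an unadjusted p under 0.05, beside 2128 of all 14855 genes tested). With the block 6 of the 36 passed, 4 higher and 2 lower in CD34- CAFs, beside 8.57% of all genes in either direction, 4.32% higher and 4.25% lower. The median log2 fold change of the 36 was 0.11 in both fits. The lower genes were Rbpj and Dlk1, and Furin, Dtx3 and Mib2 were among the higher genes.

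Rbpj, which encodes the DNA-binding partner of all 4 receptors, stood at 48.0, 48.8 and 54.4 CPM in CD34- and at 79.5, 90.7 and 120 CPM in CD34+ libraries. The groups did not overlap, and the direction was opposite to that of Notch1, Notch3 and Heyl in the same libraries. Rbpj had a log2 fold change of -0.94 ± 0.19 (adjusted p = 0.0917, limma-voom) and, with the block, -0.93 ± 0.14 (adjusted p = 0.00513, limma-voom). The coactivators Maml1, Maml2 and Maml3 did not pass, with log2 fold changes with the block of 0.38, 0.40 and -0.08.

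Dlk1, a Delta-like protein without the domain that activates Notch and a known marker of immature mesenchymal cells, was the only further ligand with enough counts. It stood at 6.41, 0.686 and 0.165 CPM in CD34- and 66.3, 10.6 and 1.34 CPM in CD34+ libraries, so that the groups overlapped but each CD34- library was below that of its own tumor, by log2 ratios of -3.37, -3.92 and -2.93. The log2 fold change was -2.83 ± 2.04 (adjusted p = 0.565, limma-voom) and with the block -3.43 ± 0.34 (adjusted p = 0.000804, limma-voom). Dll3, Dll4, Dlk2 and Dner were too low to test.

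Of the 10 genes of receptor cleavage, Furin, the protease that cuts the receptor during its maturation, was higher with the block (log2 fold change 0.58, adjusted p = 0.0488, limma-voom), at 86.7 to 105 CPM in CD34- and 45.8 to 73.6 CPM in CD34+ libraries. The ADAM proteases and the gamma-secretase subunits did not pass, among them Adam10 at -0.34 on the log2 scale with the block. None of 4 glycosylation genes passed. Of 11 genes of trafficking and turnover, the ubiquitin ligase genes Mib2 (log2 fold change 0.74, adjusted p = 0.0474, limma-voom) and Dtx3 (0.51, adjusted p = 0.0437, limma-voom) passed with the block. Mib2 overlaps Mmp23, which held 31248 counts beside 6111 for Mib2, and counting by strand was not stated, so its value is uncertain. Of the further targets, Hes6, Hey2 and Nrarp did not pass, and Hes2, Hes3, Hes5 and Hes7 were too low to test.

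**Figure D4:**
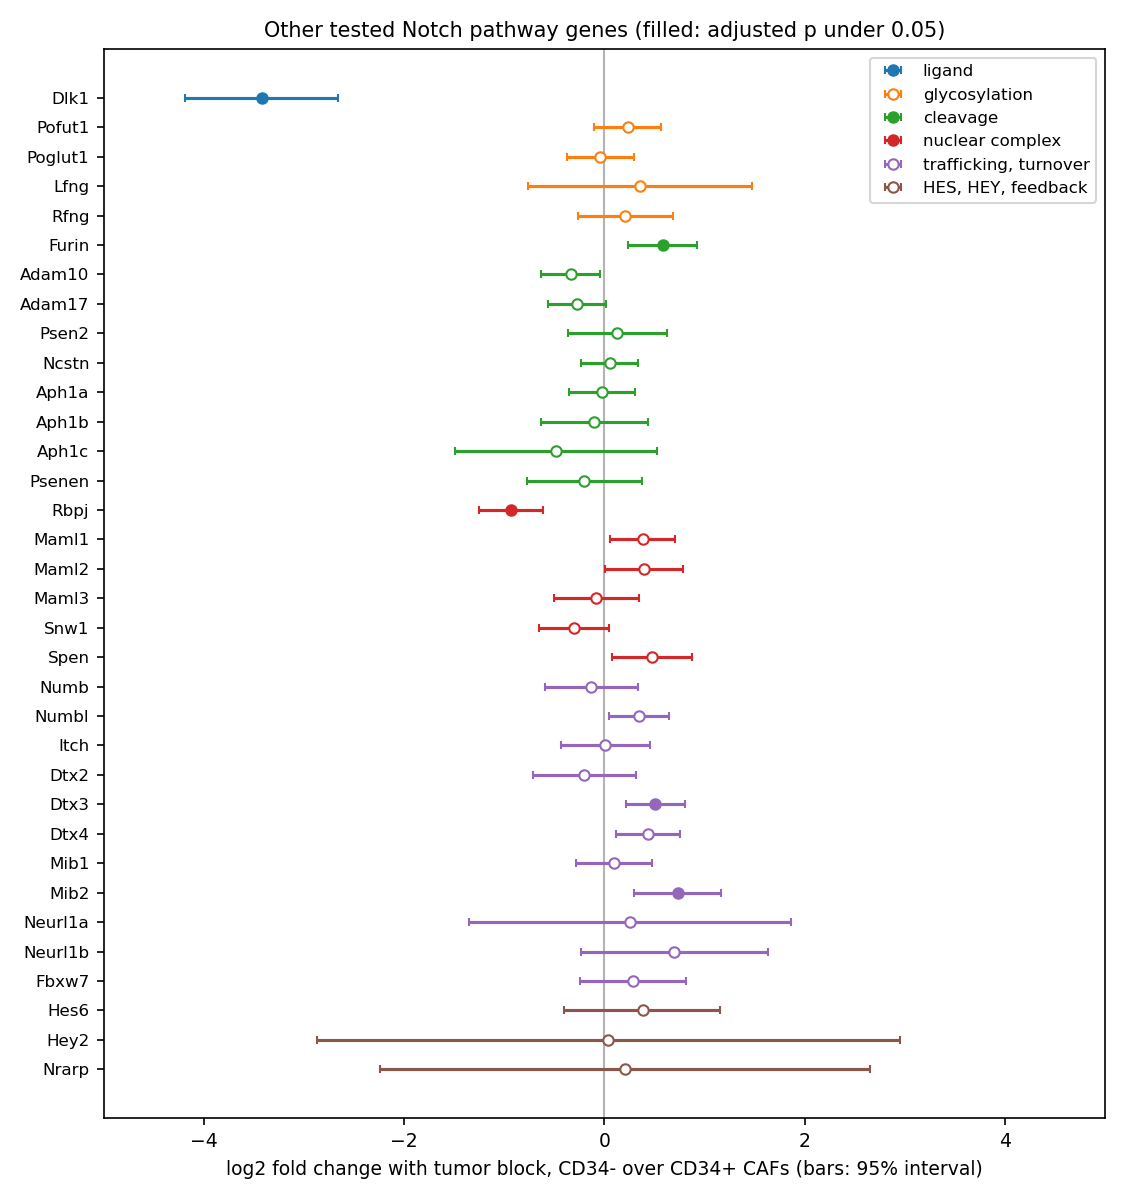
Log2 fold change (CD34- over CD34+ CAFs, tumor as a block, 95% intervals) of 34 other tested Notch pathway genes, colored by role and filled where the adjusted p is under 0.05. Dlk1 at -3.43 and Rbpj at -0.93 are filled below 0, and the 3 filled genes above 0 lie between 0.51 and 0.74.

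Across 4 fits with a tumor term on all libraries (limma-voom with a fixed or random tumor effect, edgeR and DESeq2), Notch1, Notch3, Heyl and Rbpj passed in all 4. With the block and 1 tumor left out in turn, limma-voom called these 4 genes in all 3 fits. Dlk1 passed in 5 of these 7 fits, and Furin, Dtx3 and Mib2 in 3 each. Of 7 fits without a tumor term, DESeq2 called Notch3 and Heyl, limma-voom with sample quality weights called Heyl, and the other 5 called none of the 10.

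Markers of mural cells were mixed in direction. Of 12 pericyte and smooth muscle genes, 5 were higher in CD34- CAFs with the block, 2 were lower and 5 did not pass. Of all genes tested, 4.32% were higher and 4.25% lower with the block. Without the block 0 of the 6 pericyte and 0 of the 6 smooth muscle genes passed (limma-voom). The sort was on GFP driven by Pdgfra, and the purity of the sorted fractions was not tested here. Summed over 6 pericyte genes, all detected in every library, the level was 820 to 890 CPM in CD34- and 351 to 606 CPM in CD34+ libraries, most of it Pdgfrb. With the block 3 of the 6 rose in CD34- CAFs, Mcam, Cspg4 and Pdgfrb. The potassium channel subunit genes Abcc9 and Kcnj8 fell, at log2 fold changes of -1.71 and -2.31. Rgs5 did not pass (adjusted p = 0.0803, limma-voom), at 4.08, 3.72 and 10.7 CPM in CD34- and 1.18, 1.03 and 0.247 CPM in CD34+ libraries. Mcam stood at 45.6, 37.7 and 34.6 CPM in CD34- and 16.4, 8.57 and 3.99 CPM in CD34+ libraries. Its log2 ratio was smallest in tumor 1 and largest in tumor 3 (1.47, 2.14 and 3.11), as for Notch3 and Heyl. This order of tumors was not particular to mural genes. Of the epithelial list, Epcam, Cdh1, Krt5, Krt8, Krt14 and Krt18 had it and Itga6 did not. The 6 smooth muscle genes summed to 71.8 to 102 CPM in CD34- and 49.7 to 57.6 CPM in CD34+ libraries. Most of that sum was Smtn, at 51.4 to 57.8 and 43.8 to 46.0 CPM, which did not pass (adjusted p = 0.294 with the block, limma-voom). Des and Actg2 passed with the block, both higher, and Myh11, Cnn1 and Lmod1 did not. The part of mural cells in the Notch3 and Heyl values was not tested.

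**Figure D5:**
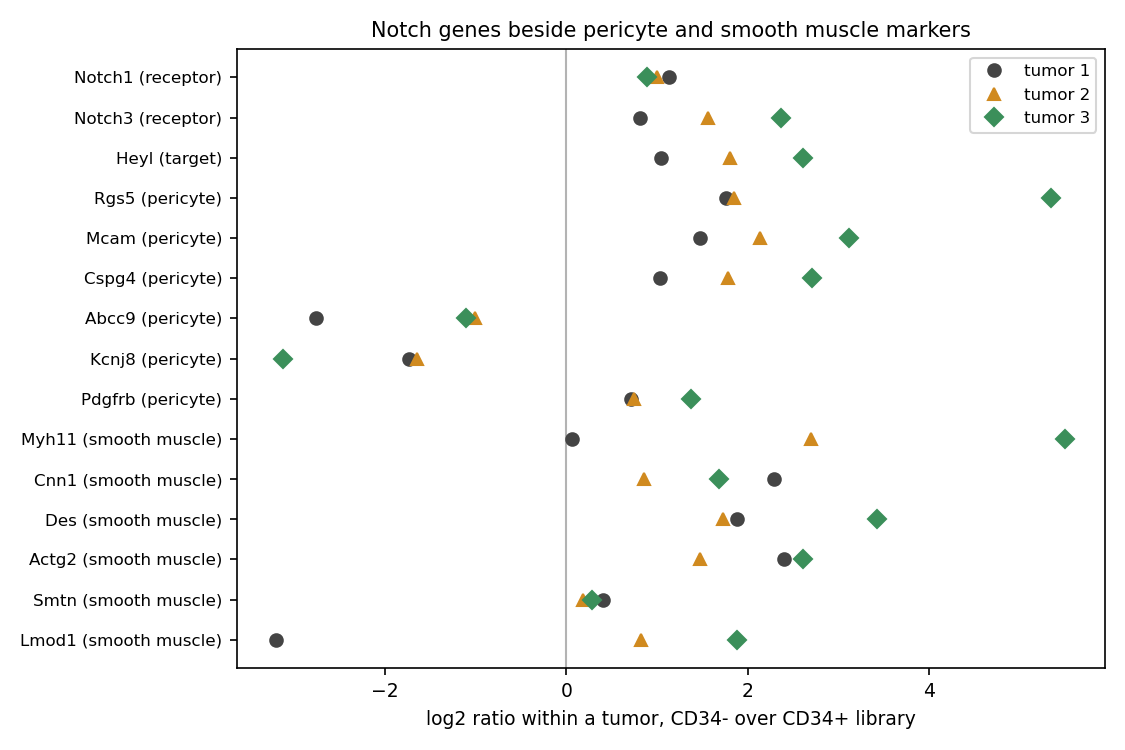
Log2 ratio of the CD34- over the CD34+ library within each of 3 tumors for Notch1, Notch3 and Heyl beside 6 pericyte and 6 smooth muscle marker genes. Notch3, Heyl, Mcam and Cspg4 lie to the right of 0 in all tumors with tumor 3 farthest, Notch1 stays near 1, and Abcc9 and Kcnj8 lie to the left of 0.

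The summed markers of the other cell types overlapped between groups. Endothelial genes summed to 12.9 to 28.2 CPM in CD34- and 8.78 to 33.6 CPM in CD34+ libraries, with 3 of 7 at 0 in some library, and epithelial genes to 55.5 to 155 and 18.3 to 141 CPM. Within tumors 1, 2 and 3 the epithelial sum was higher in the CD34- library each time, at 155, 132 and 55.5 CPM beside 141, 85.5 and 18.3 CPM. Without the block, the log2 fold change was above 0 for all 7 epithelial genes, and their part in the Notch values was not tested. Immune genes summed to 2.31 to 5.25 and 4.33 to 8.38 CPM, and Schwann cell genes to 11.2 to 16.3 and 5.82 to 12.9 CPM. With the block none of the genes of these 4 lists passed. Of 6 fibroblast genes, Dcn and Lum were lower in CD34- CAFs with the block and 0 passed without it (limma-voom). The fibroblast sums overlapped at 40900 to 62100 and 43200 to 45300 CPM.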

How the data were processed

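RNA of the sorted cells was made into Illumina TruSeq libraries. The authors aligned reads to GRCm38 and counted them per gene with Rsubread featureCounts, and deposited these counts unnormalized, 1 column per library. Strand handling was not given in the sources used here. Sample titles gave the group and the tumor. Genes were filtered with filterByExpr (minimum count 10), scaled by TMM and compared with limma-voom (two-sided, Benjamini-Hochberg over 14855 genes, threshold 0.05). The study's methods name voom and limma and do not state whether the model held the tumor. CPM use the TMM-scaled library size, and RPKM divide them by the length in the table. Versions were limma 3.58.1, edgeR 4.0.16 and DESeq2 1.42.0 in R 4.3.3. The tests were checked on simulated data, with planted fold changes larger than those of Notch1, Notch3 and Heyl and only in well-expressed genes. The check thus does not cover smaller changes or genes with few counts.

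The tumor pairs the libraries: deviations from the group means correlated at 0.373, 0.350 and 0.219 within tumors and at -0.214 to -0.0921 between them. Deviations cancel within a group, so values between tumors turn negative on average when those within tumors are positive. A fit that blocks on the tumor is therefore reported, and for some genes only its values are printed. Among these, Furin, Mib2 and Dtx3 had an adjusted p of 0.271, 0.177 and 0.361 without the block (limma-voom). No libraries agreed within sampling noise. Whether the tumors came from separate mice was not given in the sources used here.

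The 10 genes, the 46 further Notch genes and the 7 marker lists were chosen with earlier results of these data known. Named genes were the 10, the further genes that passed with or without the block, and the 3 genes most like the top receptor, ligand and target. Other named genes (Adam10, the Maml genes, Hes6, Hey2, Nrarp and single markers) were chosen with their values in view. Alternatives varied the tumor term, the test, the scaling, the filter, sample weights and each library and tumor left out. Promoters are from RefSeq. Of the 36 further genes tested, 2 enter the counts and are not reported here on their own.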

Additional observations from a re-analysis of the deposited data

How the results depend on the processing

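The number of genes with an adjusted p under 0.05, 18 in limma-voom without the tumor, depended on the replicate block. It was 1273 with the tumor block, 703 with a random tumor effect, 575 in edgeR and 1733 in DESeq2 with the block, and without it 9 in edgeR, 698 in DESeq2, 32 with library totals alone and 161 with sample weights. Leaving out a library or tumor gave 0 to 86 without the block (86 without tumor 1), and with it 1134, 851 and 2019 without tumors 1, 2 and 3. Of the 10 Notch genes, 0 passed without the block, 3 with the tumor block, a random effect, or the block in edgeR or DESeq2, 2 in DESeq2 without it, and 1 with weights. With libraries or tumors left out it was 3 in each fit with the block and 0 to 1 without it, the 1 being Heyl, without tumor 1 or its CD34+ library. Of the 36 other Notch genes, 0 passed without the block, 6 with it, 1 with a random effect, 2 in edgeR and 6 in DESeq2 with the block, 1 in DESeq2 without it, and 1 to 6 with the block and a tumor left out (0 without the block).

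Of 220 alternative values of the 10 genes, 20 changed direction. Dll1 went to -0.0591 in edgeR and -0.07645 in DESeq2 with the block, and Hes1 to -0.24 with weights. With libraries or tumors left out, log2 fold changes ran from -0.37 to 0.00689 for Notch2, -0.22 to 0.82 for Notch4, -0.84 to 2.54 for Jag2, -1.12 to 1.47 for Dll1 and -0.28 to 0.32 for Hes1, and the Jag1 share differed by -1.56 to 0.791 percentage points. Among these, with the block, Jag2 was at -0.36 and Dll1 at -0.48 without tumor 2, and Hes1 at -0.13 without tumor 3. Notch4 was at -0.15 without tumor 3 and no block. The cause was not tested. Notch1, Notch3 and Heyl kept their direction in every alternative. Jag2 and Dll1 rested on few reads, 1 and 12 in the CD34- library of tumor 3.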
